A study of Mus musculus with 6 samples.

Results

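The genes described are 3 receptors (Notch1, Notch2, Notch3), 2 ligands (Jag1, Dll1) and 5 target genes (Hes1, Hey1, Hey2, Heyl, Nrarp) of the Notch pathway, chosen by name. Their transcripts were measured on Affymetrix arrays in skull roof bone (calvaria) of mice aged 10 days. A probe set, the group of array probes that reads 1 transcript, was taken where its annotation gave exactly 1 gene symbol and that symbol was one of the 10, which gave 18 of 45101 probe sets and all 10 genes. The mutant mice, 13del-tg, carry a Col10a1-13del transgene, a form of the collagen X gene, and are described by the submitters as having bone overgrowth. The controls were their wild-type littermates. The labels name neither the strain nor the promoter of the transgene, and do not say whether a sample held 1 animal or several. The tissue was parietal bone, cut as frozen sections, so each sample is a mixture of cells.

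Each genotype has 3 biological replicates in the labels. The columns deposited as control 1 and 13del-tg 1 held the same value for 45101 of 45101 probe sets, so 1 array carries both labels. It is called the shared array here and is shown apart, and the comparison sets 13del-tg 2 and 3 against controls 2 and 3. The probe set for Col10a1 had signals of 149.8 and 158 in controls 2 and 3, 15689 and 11584 in 13del-tg 2 and 3, and 152 on the shared array. The deposited signals had a trimmed mean of 500.003 on each of the 5 distinct arrays. The median signals still differed, with 103.4 and 127.9 in controls 2 and 3, 105.6 and 93.5 in 13del-tg 2 and 3, and 122.6 on the shared array. With 2 arrays of each genotype, the precision of every value below is low. An exact two-sided permutation test of 2 arrays against 2 cannot give a p under 0.333, so tests rest on limma, a linear model that shares information on the spread across all probe sets.

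Notch receptors are membrane proteins that are activated by ligands on a neighbouring cell. Binding leads to cleavage of the receptor, and its freed intracellular part enters the nucleus, joins the DNA-binding protein RBPJ and switches on genes of the Hes and Hey families. In bone, Notch signalling is known to act in osteoblast precursors, osteocytes and vessels, and Jag1 and Notch2 are known for skeletal disease when mutated.

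No Notch receptor, ligand or target probe set passed the test between the genotypes. Of the 18 probe sets, 17 passed a filter on low signal (a log2 mean of all 5 distinct arrays that reached the 40th percentile, which corresponds to a signal of 61.9) and were tested. None of the 17 had an adjusted p under 0.05 by limma with Benjamini-Hochberg adjustment over 27022 probe sets, of which 0.0370% had one. None had an unadjusted p under 0.05 either, against 5.14% of all tested. The smallest adjusted p among the 17 was 0.88. Differences are given as 13del-tg minus control as log2(signal + 16), so that those of dim probe sets are understated. They ran from -0.82 to 0.57, with a median of -0.093, beside a median of -0.075 over all tested probe sets. Of all tested probe sets 58.6% were negative, and of the 17 members 11 were (64.7%), with 6 positive. The split of signs turned to 12 positive and 5 negative when each array was centred on its median, a scaling that moved the median of all tested probe sets to 0.11, and to 9 and 8 with quantile normalization.

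**Figure D1:**
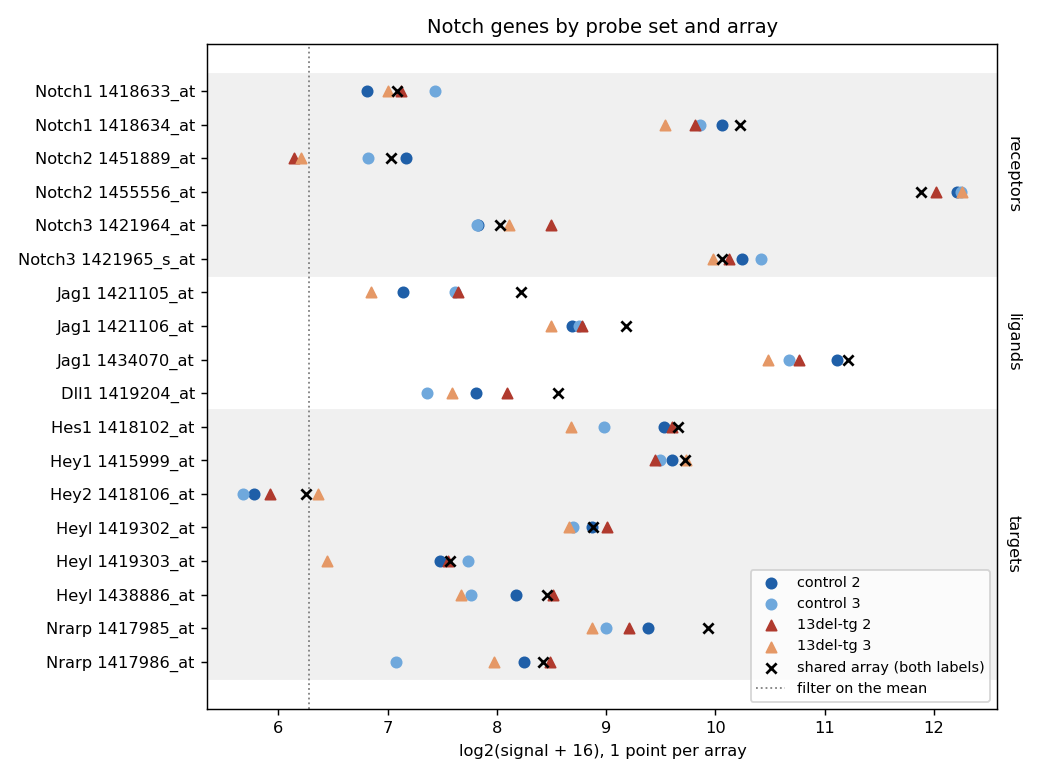
Signal of each Notch probe set on each array, as log2(signal + 16) on the horizontal axis, with circles for the 2 controls, triangles for the 2 13del-tg arrays and crosses for the shared array. The dotted line is the filter, which applies to the mean of the 5 arrays. Circles and triangles interleave for 13 of the 17 tested probe sets, and the crosses of all 4 ligand probe sets lie to the right of the other arrays.

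Notch1 encodes a receptor used in many tissues, with a known role in vessels and blood cells. Its probe set 1418634_at had signals of 1054 and 914 in the controls, 882 and 729 in 13del-tg, and 1184 on the shared array. Both 13del-tg arrays thus lay below both controls, by a log2 difference of -0.29 (SE 0.24, 95% interval -0.83 to 0.26, adjusted p = 0.89). This difference was -0.15 without 13del-tg 3 and -0.42 without 13del-tg 2. The shared array was above all 4. The other Notch1 probe set, 1418633_at, had 96.6 and 157 in the controls, 123 and 113 in 13del-tg, and 120.3 on the shared array. Its 13del-tg values sat between those of the controls, and its difference was -0.058 (SE 0.39).

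Notch2 encodes the receptor whose gain of function is known to cause bone loss in people. Probe set 1455556_at had signals of 4719 and 4863 in the controls, 4141 and 4869 in 13del-tg, and 3763 on the shared array. The groups overlapped, and the log2 difference of -0.093 (SE 0.19) had the narrowest 95% interval of the tested members, -0.53 to 0.34. Probe set 1451889_at had 128 and 97.4 in the controls against 54.9 and 57.9 in 13del-tg, with 115 on the shared array. That difference, -0.82 (SE 0.40, interval -1.75 to 0.11, adjusted p = 0.88), was the one farthest from 0 among the members. Both 13del-tg signals lay under the filter's level of 61.9, so this probe set was tested on the strength of its control and shared signals, and its size depends on the pseudocount. The gap between the Notch2 probe sets, 0.73 on the log2 scale, was not tested.

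Notch3 encodes a receptor known from smooth muscle cells and pericytes of vessels. Its probe set 1421964_at had signals of 211 and 209 in the controls, 346 and 261 in 13del-tg, and 246 on the shared array. Both 13del-tg arrays were above both controls, with a log2 difference of 0.49 (SE 0.31, interval -0.23 to 1.20, adjusted p = 0.88). This difference was 0.29 without 13del-tg 2 and 0.68 without 13del-tg 3. The probe set 1421965_s_at went the other way. It had 1194 and 1349 in the controls, 1101 and 994 in 13del-tg, and 1051.5 on the shared array, a difference of -0.27 (SE 0.22, adjusted p = 0.89). The suffix of its name marks probes that can match more than 1 transcript. The Notch3 probe sets therefore give no single direction.

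Over the receptors, 4 of 6 probe sets had groups that did not overlap, 3 with 13del-tg lower and 1 with it higher. Among all tested probe sets, 23.0% had both 13del-tg arrays below both controls and 12.6% had both above. The 6 receptor probe sets had a median difference of -0.18, with 5 negative, which turned to 3 positive and 3 negative with centred arrays. Of their 95% intervals, 4 lay wholly between -1 and 1 on the log2 scale.

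Jag1 encodes Jagged1, a ligand made by osteoblasts and vessel cells. Probe set 1434070_at had signals of 2195 and 1622 in the controls, 1729 and 1412.5 in 13del-tg, and 2355 on the shared array. The groups overlapped, with a log2 difference of -0.27 (SE 0.24, interval -0.82 to 0.28, adjusted p = 0.89). Without control 2 it was -0.053, without 13del-tg 3 it was -0.12, without 13del-tg 2 it was -0.41 and without control 3 it was -0.49. Probe set 1421106_at had 397 and 416 in the controls, 424 and 345 in 13del-tg, and 563.5 on the shared array, a difference of -0.083 (SE 0.27). Here the 13del-tg arrays lay on either side of the controls. Probe set 1421105_at had 125 and 181 in the controls, 184 and 99.3 in 13del-tg, and 283 on the shared array, a difference of -0.13 (SE 0.41). All 3 Jag1 probe sets had a negative difference, but 1421106_at and 1421105_at turned positive with quantile normalization (0.030 and 0.040) and with arrays centred on the median (0.10 and 0.052).

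Dll1 encodes Delta-like 1, a ligand known from the segmentation of the early spine. Its 1 probe set, 1419204_at, had signals of 209 and 149 in the controls, 257.5 and 177 in 13del-tg, and 362 on the shared array. The groups overlapped and the log2 difference was 0.25 (SE 0.36, interval -0.57 to 1.08, adjusted p = 0.93). It was 0.0022 without 13del-tg 2 and 0.029 without control 3, but 0.48 without control 2 and 0.51 without 13del-tg 3. For all 4 ligand probe sets the shared array was above the 4 other arrays, which held for 27.1% of all tested probe sets. It was below them for 1 of the 17 tested members, Notch2 1455556_at, and for 20.9% of all. In each of the 4 ligand probe sets, 3 of them of Jag1, the 2 13del-tg arrays differed by more than the genotypes did. The same held for 15992 of the 27022 tested probe sets.

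**Figure D2:**
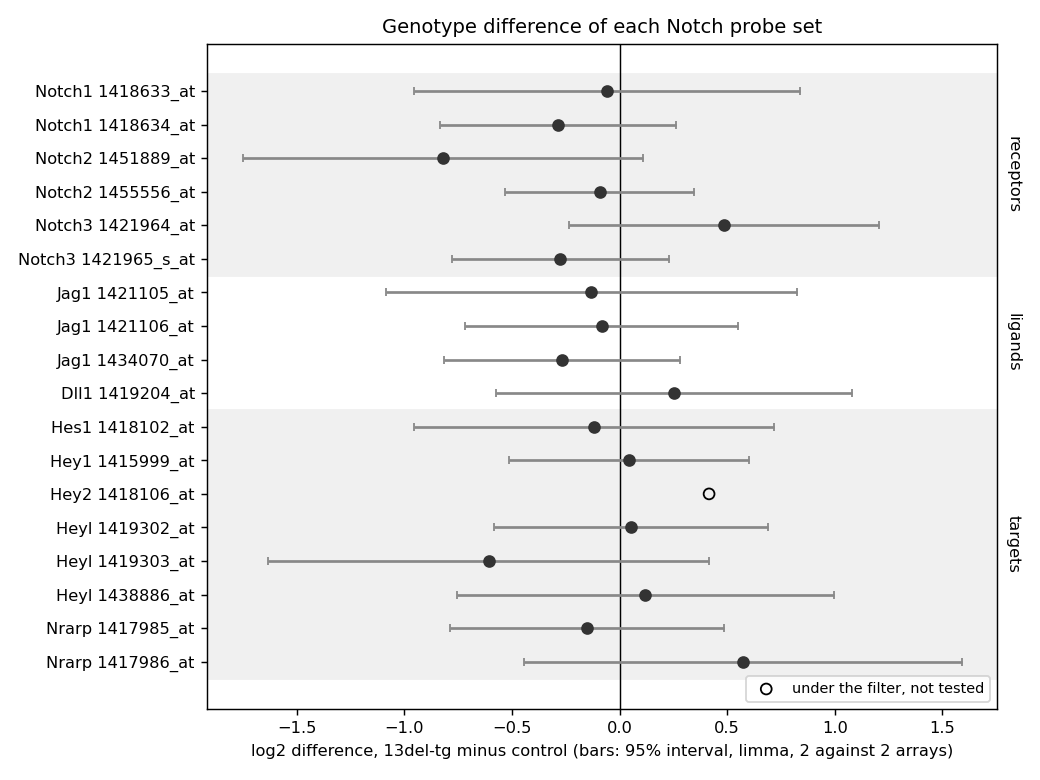
Log2 difference of each Notch probe set, 13del-tg minus control, with 95% intervals from limma on 2 against 2 arrays. The intervals of all 17 tested probe sets cross 0, and the open circle is the Hey2 probe set, which was under the filter and not tested.

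Hes1 encodes a repressor that is a direct Notch target in many cells. Its probe set, 1418102_at, had signals of 725 and 491 in the controls, 763 and 393 in 13del-tg, and 792 on the shared array. The 13del-tg arrays held both the highest and the lowest of the 4 compared values, and the log2 difference was -0.12 (SE 0.36, interval -0.96 to 0.72, adjusted p = 0.97). The 2 13del-tg arrays differed from each other by 0.93 on the log2 scale and the controls by 0.55. Without 13del-tg 3 the Hes1 difference was 0.35, and without 13del-tg 2 it was -0.58.

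Hey1 encodes a repressor of the Hey family that Notch induces in vessels and osteoblasts. Its probe set, 1415999_at, had 764 and 705 in the controls, 684 and 835 in 13del-tg, and 829 on the shared array. The 13del-tg values enclosed those of the controls. The log2 difference was 0.042 (SE 0.24, interval -0.52 to 0.60, adjusted p = 0.99), so a change of 2-fold in either direction lay outside the interval.

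Hey2, known from arteries and the heart, was the member whose only probe set was under the filter. Probe set 1418106_at had signals of 38.8 and 35.3 in the controls, 44.7 and 66.4 in 13del-tg, and 60.5 on the shared array. Both 13del-tg arrays were above both controls, by 0.42 on the log2 scale, at signals where the pseudocount of 16 weighs heavily, and no test was made. It was 0.20 without 13del-tg 3 and 0.64 without 13del-tg 2.

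Heyl, the Hey gene known from vascular smooth muscle, had 3 probe sets. Probe set 1419302_at had 453 and 399 in the controls, 500.5 and 389 in 13del-tg, and 455 on the shared array, a log2 difference of 0.053 (SE 0.28). Probe set 1438886_at had 274 and 201 in the controls, 349 and 188 in 13del-tg, and 337 on the shared array, a difference of 0.12 (SE 0.38). In both the 13del-tg arrays enclosed the controls. Probe set 1419303_at had 163 and 198 in the controls, 172 and 71.3 in 13del-tg, and 174 on the shared array. Its difference of -0.61 (SE 0.45, interval -1.64 to 0.42, adjusted p = 0.88) rested on 13del-tg 3, and without that array it was -0.055, against -1.16 without 13del-tg 2. For all 3 Heyl probe sets 13del-tg 3 was the lowest of the 5 arrays.

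Nrarp encodes a short protein that Notch induces and that limits Notch activity in turn. Probe set 1417985_at had signals of 652 and 496 in the controls, 575 and 454 in 13del-tg, and 959 on the shared array. The groups overlapped, with a log2 difference of -0.15 (SE 0.28, interval -0.79 to 0.49, adjusted p = 0.95). Probe set 1417986_at had 288 and 119 in the controls, 344 and 236 in 13del-tg, and 327 on the shared array. Its difference of 0.57 (SE 0.44, interval -0.44 to 1.59, adjusted p = 0.89) was the most positive of the tested members and rested on control 3. Without that array it was -0.014, and without control 2 it was 1.16. The groups of both Nrarp probe sets overlapped, and their signs differed.

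Over the targets, 0 of 7 tested probe sets had groups that did not overlap, against 35.6% of all tested probe sets. In all 7, the arrays of at least 1 genotype differed from each other by more than the genotypes did, which held for 77.7% of all tested probe sets. The median absolute difference between genotypes was 0.12 for the targets, and the median gap between 2 arrays of 1 genotype was 0.38 for the controls and 0.51 for 13del-tg. Over all tested probe sets these values were 0.24, 0.31 and 0.32. Control 2 was above control 3 in 6 of the 7, against 41.4% of all tested probe sets. For 13del-tg 2 above 13del-tg 3 it was 6, against 54.7%, and 5 had both, against 25.5%. The 7 probe sets are of 4 genes, with 3 of Heyl and 2 of Nrarp.

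RefSeq promoter windows, 250 bases before to 50 bases after a gene's start on GRCm38.p6, were at hand for 7 of the 10 genes (8 windows, since Dll1 has 2). Hes1, Hey1 and Heyl had no window and were not searched. The letters TGGGAA, the core of RBPJ sites, were searched on both strands, with the longer GTGGGAA, which contains it, and with CACNAG and CACGTG, the N-box and E-box that Hes and Hey proteins are known to bind. TGGGAA and GTGGGAA were each found in 1 of the 8 windows, that of Hey2, and in 25.6% and 6.38% of all 32851 windows. CACNAG was found in 5 of 8 and in 42.5% of all windows, and CACGTG in 1 of 8, that of Nrarp, and in 7.15%. The stretches of the 2 target genes with a window are shown to let these letters be seen, with the match in capitals. The Hey2 stretch, chr10:30842959-30843015 on the minus strand, holds GTGGGAA on the opposite strand at position -207 from the start, and a further match at position -4 runs across the start. The Nrarp stretch, chr2:25180625-25180680 on the plus strand, holds CACGTG at position -108. A match of letters is a description of the window and not a measured site.
Hey2: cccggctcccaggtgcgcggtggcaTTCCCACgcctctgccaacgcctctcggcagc
Nrarp: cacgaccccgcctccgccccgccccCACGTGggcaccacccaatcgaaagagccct

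The Notch probe sets lay inside the bulk of the array. An absolute log2 difference over 0.5 was seen in 3 of the 17 tested members (Notch2 1451889_at, Heyl 1419303_at and Nrarp 1417986_at), and in 19.4% of all tested probe sets. The 95% interval lay wholly between -1 and 1 for 11 of the 17 and for 49.3% of all tested probe sets. These limits apply to log2 signals with the pseudocount added, so for dim probe sets a 2-fold change of signal can lie inside them. For the other 6 of the 17 members a log2 difference of -1 or of 1 was not excluded by these arrays. Of the 6 genes with several tested probe sets, Notch1, Notch2 and Jag1 had differences of 1 sign with the values as deposited, and Notch3, Heyl and Nrarp did not.

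**Figure D3:**
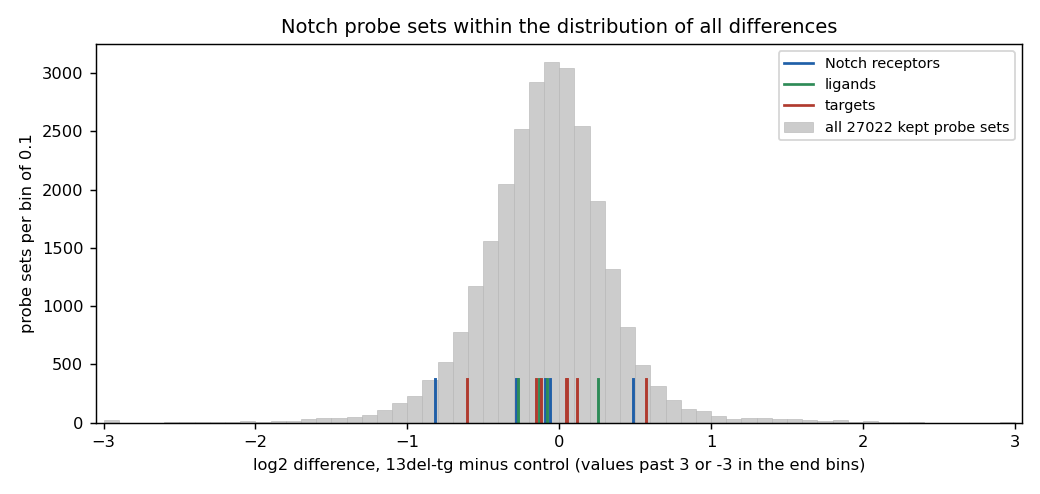
Histogram of the log2 differences, 13del-tg minus control, of all 27022 tested probe sets in bins of 0.1, with values past 3 or -3 placed in the end bins. Coloured ticks mark the 17 tested Notch probe sets by role, which run from -0.82 to 0.57.

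A list of 57 other Notch pathway genes was set beside these members. Of these, 52 were found under a single symbol, with 109 probe sets, and 90 probe sets of 46 genes passed the filter. None of the 90 passed the adjusted threshold, and 1 had an unadjusted p under 0.05. Their differences were positive for 30 and negative for 60 (66.7%), with a median of -0.084, while 58.6% of all tested probe sets were negative. With arrays centred on the median the 90 turned to 58 positive and 32 negative. For 20 of 90 (22.2%) 13del-tg was below both controls on each array, and for 4 of 90 (4.44%) above, beside 23.0% and 12.6% of all tested probe sets. The genes named below are those of each role with the smallest unadjusted p. Unless another probe set is given, a gene's value is that of its probe set with the smallest unadjusted p.

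Among the other receptors and ligands, 6 of 10 probe sets were positive. Dlk1 encodes a membrane protein related to Notch ligands that lacks the receptor-binding part of the classical ones. Its probe set 1442724_at had signals of 437 and 48.5 in the controls, 812 and 365 in 13del-tg, and 522 on the shared array, a log2 difference of 1.72 (SE 0.81, adjusted p = 0.88). Its other probe set, 1449939_s_at, had 8572 and 1857 in the controls, 14775 and 5650 in 13del-tg, and 10491 on the shared array, a difference of 1.19. In both, control 3 was the lowest array by far and control 2 lay within the range of 13del-tg. Without control 2, Dlk1 was the only gene of the list past the threshold, with differences of 3.12 (adjusted p = 0.010) and 2.29 (adjusted p = 0.044). Without control 3 the difference of 1442724_at was 0.31, and it did not pass. In the same arrays the summed signal of 8 skeletal muscle markers was 150493 in control 2, 26583 in control 3, 192455 and 148831 in 13del-tg and 178059 on the shared array, again with control 3 lowest, and its part in the Dlk1 values was not tested.

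Jag2, a relative of Jag1, had 165 and 29.2 in the controls, 199.6 and 203.5 in 13del-tg, and 232 on the shared array at probe set 1426431_at, a log2 difference of 1.26 (SE 0.61, adjusted p = 0.88). Without control 3 it was 0.26, and without control 2 it was 2.27. Its probe set 1426430_at had a difference of -0.42, so the Jag2 probe sets differed in sign.

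Fringe enzymes add sugars to Notch and set which ligands it answers. Over the glycosylation genes, 7 of 8 probe sets were negative, and 3 of 8 with centred arrays. Mfng, the fringe gene known from blood cells, had signals of 313 and 343 in the controls, 176 and 188 in 13del-tg, and 240.5 on the shared array. Each 13del-tg value was well below each control. The log2 difference was -0.79 (SE 0.30, interval -1.49 to -0.10), the 1 pathway probe set with an unadjusted p under 0.05 (0.030), but its adjusted p was 0.88. Beside it, all 5 erythroid markers found of 7 listed had both 13del-tg arrays below both controls, against 23.0% of all tested probe sets. Their summed signals were 12355 and 14591 in the controls, 3055 and 4256 in 13del-tg, and 8019 on the shared array. No list of white blood cell markers was read. The part of marrow cells in the Mfng values was not tested, and in such bulk samples fewer cells of a type and less RNA per cell cannot be told apart. Rfng had -1.03 (SE 0.54) at probe set 1421160_a_at, which was -0.20 without 13del-tg 3 and -1.86 without 13del-tg 2. Its brighter probe set, 1460704_at, had -0.17 (SE 0.23).

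No probe set of the remaining roles had an unadjusted p under 0.05. Of the cleavage genes, 8 of 15 probe sets were positive (12 with centred arrays), and Ncstn and Aph1b, both of the gamma-secretase complex, had -0.56 (SE 0.39) and -0.51 (SE 0.37). The first was 0.0069 without 13del-tg 3 and -1.13 without 13del-tg 2. Aph1b was -0.089 without control 3, -0.21 without 13del-tg 2, -0.81 without 13del-tg 3 and -0.93 without control 2. The other tested Aph1b probe set had -0.29. Of the genes for endocytosis and turnover, 15 of 22 were negative (9 with centred arrays), with Dtx1, a Notch-binding ubiquitin ligase, at -1.01 (SE 0.44) and Numbl, an adaptor that restrains Notch, at -0.57 (SE 0.28). Both genes had 13del-tg below both controls, and Dtx1 was -0.63 without 13del-tg 2 and -1.40 without 13del-tg 3. In the nuclear complex, 11 of 18 were negative (4 with centred arrays). The acetyltransferase gene Kat2a had -0.53 (SE 0.39) at 1422971_at, and the RBPJ-binding Snw1 had -0.39 (SE 0.29) at 1429003_at. Without control 3 they were -0.27 and -0.085, and without control 2 they were -0.78 and -0.68. The other tested probe sets were closer to no difference, with -0.069 and -0.031 for Kat2a and -0.042 and 0.029 for Snw1. The 3 tested probe sets of Rbpj itself had 0.11, 0.067 and 0.046. Of the corepressors, 14 of 15 were negative (8 with centred arrays and 10 with quantile normalization). Tle3 had -1.55 (SE 0.72) at 1458512_at, its dimmest tested probe set. Signals there were 57.8 and 258 in the controls and 13.3 and 64.3 in 13del-tg. That difference was -0.61 without control 3, -0.82 without 13del-tg 2 and -2.50 without control 2. The 13del-tg signals of 1458512_at averaged under the filter's level, so that it was tested on the strength of the other arrays. The brightest Tle3 probe set, 1419655_at, had -0.47 (SE 0.25), and the remaining ones had -0.60 and -0.52. Ctbp2 had -0.22 (SE 0.24), which was -0.0039 without 13del-tg 3 and -0.44 without 13del-tg 2. Its other probe set had -0.011. Hes6, the other Hes gene with tested probe sets, had -0.32 (SE 0.25), which was -0.14 without control 3 and -0.49 without control 2, and -0.0015.

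**Figure D4:**
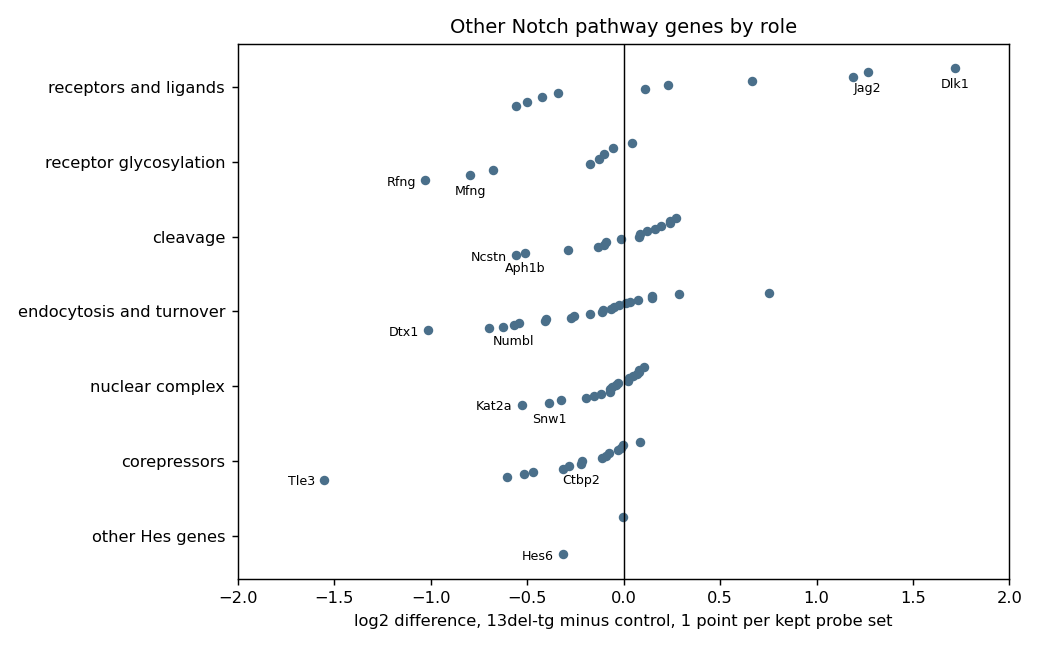
Log2 difference, 13del-tg minus control, of the 90 tested probe sets of other Notch pathway genes, 1 point each, by role. Labels mark 1 probe set of each named gene, and Dlk1 1442724_at (1.72) and Tle3 1458512_at (-1.55) lie at the ends.

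Markers of cells in which Notch genes are known to act were read in the same arrays, 1 probe set a gene. For 10 endothelial markers the summed signal was 12469 and 11897 in the controls, 12770 and 10266 in 13del-tg, and 13483 on the shared array. For 10 mural and smooth muscle markers it was 31852 and 25878 in the controls, 36227 and 32385 in 13del-tg, and 37459 on the shared array. In both lists the shared array was highest, and 7 of 10 endothelial and 1 of 10 mural markers had a negative difference, with none past the adjusted threshold. The osteoblast sum, over the 6 of 10 listed genes that were found, was 119551 and 133102 in the controls and 136217 and 142294 in 13del-tg. On the shared array it was 84338, the lowest of the 5. Most of this sum came from Sparc and Col1a1, with 50982 and 42618 in control 2. The difference was positive for 4 of the 6 genes and negative for Alpl (-0.096) and Sp7 (-0.22). The sum of 6 osteocyte markers was 39659 and 45978 in the controls, 35511 and 50383 in 13del-tg, and 28711 on the shared array. Of the 5 osteocyte markers tested, 3 had a positive difference. The 2 negative ones were Mepe (-0.26) and Sost (-1.65, adjusted p = 0.14 by limma). All 8 chondrocyte markers had a negative difference with overlapping groups, from sums of 25919 and 6018 in the controls and 9352 and 2238 in 13del-tg. No marker had a signal of 0, and the lowest was Nefl, a neuron gene, at 9.6. Nefl was under the filter. Of the 5 tested markers of neural tissue, 2 had a positive and 3 a negative difference. Among these, Snap25 (-3.86, adjusted p = 0.038 by limma) was past the threshold. The part of cell mixture in the Notch values was not tested.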

How the data were processed

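Per the submitters' processing notes, MAS5 made the values (its version was not given in the sources used). The deposited intensities are linear, with 1 value for each probe set on each array, and the authors had brought them to 1 trimmed mean (2% left out at each end). Probe sets were named from the platform annotation, and pathway and marker symbols were updated by gene number through the RefSeq gene table (34741 of 34945 probe sets with 1 symbol). The 64 array control probe sets were left out. Values were taken as log2(signal + 16) with no further normalization, and 27022 of 45037 probe sets passed the filter. The comparison was fitted in R 4.3.3 by limma 3.58.1, using lmFit and eBayes with a mean trend, with 2 residual and 6.01 prior degrees of freedom, two-sided, at an adjusted p of 0.05. All probe sets were tested one by one, and the code was tested on simulated data. Members, lists and tests were chosen with earlier results of these data known. The rule names all members and, of each pathway role, up to 2 genes with the smallest unadjusted p. The other probe sets of Dlk1, Jag2, Rfng, Aph1b, Kat2a, Snw1, Tle3, Ctbp2 and Hes6 and the probe sets of Rbpj were named after their values were seen. So were the markers Nefl, Snap25, Sparc, Col1a1, Alpl, Sp7, Mepe and Sost. Alternatives covered pseudocount, filter, scaling, eBayes settings, the replicate block, the shared array, 1 probe set a gene and each array left out. Promoter windows came from RefSeq, GRCm38.p6.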

Additional observations from a re-analysis of the deposited data

Results flagged for a closer look

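On the array deposited under both genotype labels, which the comparison does not use, 7 of 17 tested Notch probe sets (41.2%) had a signal above all 4 other arrays, against 27.1% of all tested probe sets. These signals were 1184.4 for Notch1 1418634_at, 282.8, 563.5 and 2355.1 for the 3 Jag1 probe sets 1421105_at, 1421106_at and 1434070_at, 361.8 for Dll1 1419204_at, 791.6 for Hes1 1418102_at and 959.2 for Nrarp 1417985_at. The genotype of that array is not settled by its labels, though its Col10a1 signal of 152 lay between those of controls 2 and 3 (149.8 and 158). The comparison leaves the array out, and fits that count it under either label or both stand only among the alternatives.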

How the results depend on the processing

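No Notch member passed the adjusted threshold by limma under any of the 17 alternatives, and at most 1 had an unadjusted p under 0.05. Over all probe sets, 2 were higher and 8 lower in 13del-tg. These counts were 1 and 1 with a pseudocount of 1, with the 60th percentile filter and with quantile normalization, 2 and 5 with a pseudocount of 64, 1 and 0 without a filter, without the trend and with the shared array taken for a control, 3 and 21 with centred arrays, 2 and 18 with robust eBayes, 0 and 8 with that array taken for 13del-tg, and 0 and 0 with it under both labels (31 and 263 with an unadjusted p under 0.05). With each array left out they ran from 1 to 199 higher and from 5 to 43 lower, both highest without control 2, and from 0 to 2 for other pathway probe sets. The replicate block gave 330 and 338, with 2 other pathway probe sets, both of Dlk1 (adjusted p = 5.5e-05 and 1.4e-06). Their differences stayed at 1.72 and 1.19, while the SE fell from 0.81 to 0.34 and from 0.67 to 0.20. A block leaves fewer residual degrees of freedom than the 2 without it, so these p-values lean more on the spread shared across probe sets. Without the block the adjusted p of both was 0.88, so Dlk1 is not taken as changed. The deviations of same-numbered arrays correlated at 0.22 over probe sets, and 2 pairs do not show that the numbers pair the samples.

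Signs turned as follows. With centred arrays Notch1 1418633_at was 0.13, Notch2 1455556_at 0.091, Jag1 1421105_at 0.052, Jag1 1421106_at 0.10, Hes1 0.065 and Nrarp 1417985_at 0.033. With quantile normalization Notch1 1418633_at was 0.11 and the 2 Jag1 probe sets 0.040 and 0.030. Taking the shared array for a control, Notch2 1455556_at was 0.023, Dll1 -0.070, Hey1 -0.016 and Heyl 1438886_at -0.044. Taking it for 13del-tg, Jag1 1421105_at was 0.19, Jag1 1421106_at 0.097, Hes1 0.054 and Nrarp 1417985_at 0.15. With each array left out, Notch1 1418633_at ran from -0.37 to 0.25, Notch2 1455556_at from -0.21 to 0.023, Jag1 1421105_at from -0.53 to 0.27, Jag1 1421106_at from -0.23 to 0.059, Hes1 from -0.58 to 0.35, Hey1 from -0.099 to 0.18, Heyl 1419302_at from -0.12 to 0.23, Heyl 1438886_at from -0.30 to 0.54, Nrarp 1417985_at from -0.34 to 0.040, Nrarp 1417986_at from -0.014 to 1.16 and Ncstn from -1.13 to 0.0069. The cause was not tested. A fit that leaves 1 array in a group assumes that it varies like the others.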
